A study of Mus musculus with 4 samples.

Results

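The miR-34 family was read by 3 assays of a TaqMan microRNA panel, mmu-miR-34a, mmu-miR-34b-3p and mmu-miR-34c. They were chosen by name from the 375 microRNA assays listed for all 4 samples, whether or not they amplified. Each sample was total RNA of whole C57BL/6 mouse embryos at E18.5. The 2 ER-alpha KO samples came from embryos with a knockout of estrogen receptor alpha, the hormone-bound transcription factor that Esr1 encodes, and the 2 wild-type samples from embryos of the same strain and stage. The labels do not name the knockout allele, the number of embryos in a sample or their litters, so a spread between samples may be technical or biological. All 3 assays amplified in all 4 samples at a threshold cycle (Ct) of 35 or lower, and so entered the comparison with 226 other microRNAs. The Ct is the PCR cycle at which the signal passes a threshold: a higher Ct means less RNA, and 1 cycle is taken as 1 log2 unit. The family was picked with the knockout-to-wild-type values of these data known, above all those of mmu-miR-34c, so that contrast is described here for its members and is not tested.

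MiR-34 microRNAs are induced by the tumour suppressor p53 and repress messenger RNAs of proliferation and survival, Myc and Met among them, through sites that pair with the seed, bases 2 to 8 of the microRNA. Mir34a is a gene of its own with broad expression, brain included, while Mir34b and Mir34c lie side by side and are made from a shared primary transcript that is best known from testis and airway epithelium. The miR-449 microRNAs have the same seed and act together with miR-34 in cells that carry many motile cilia.

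In the RefSeq annotation of GRCm38.p6 the Mir34a hairpin lies at chr4:150068454-150068555 on the plus strand and overlaps no other annotated gene. Its nearest protein-coding gene is Gpr157, 18948 bases away. The Mir34c hairpin lies at chr9:51103034-51103110 and the Mir34b hairpin at chr9:51103562-51103645, both on the minus strand, with 451 bases between them. Both overlap the spans of the protein-coding genes Btg4 and Hoatz. The Mir449a hairpin, at chr13:113037534-113037624 on the plus strand, overlaps Cdc20b. The mature RefSeq sequences are shown because the family's arms carry 2 different seeds, given in capitals, 5′ to 3′.
mmu-miR-34a-5p: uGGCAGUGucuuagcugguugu
mmu-miR-34b-5p: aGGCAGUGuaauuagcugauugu
mmu-miR-449a-5p: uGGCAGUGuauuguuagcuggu
mmu-miR-449c-5p: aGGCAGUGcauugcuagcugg
mmu-miR-34b-3p: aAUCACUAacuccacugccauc
mmu-miR-34c-3p: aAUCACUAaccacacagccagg

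Among 1679 mature mouse sequences of the same table, 4 had the seed GGCAGUG and 2 had AUCACUA, and these are the 6 shown. The table is not a complete list, with no entry for the 5′ arm of Mir34c or for Mir449b, so the seeds may have further members. The 5′ arms mmu-miR-34a-5p and mmu-miR-34b-5p differed by 4 edits (single-base changes, insertions or deletions), while mmu-miR-34a-5p and mmu-miR-449a-5p differed by 6. The 3′ arms mmu-miR-34b-3p and mmu-miR-34c-3p differed by 5 edits. The 2 hairpins of chromosome 9 are shown because each holds both seed strings, 1 in each arm, again in capitals.
Mir34b: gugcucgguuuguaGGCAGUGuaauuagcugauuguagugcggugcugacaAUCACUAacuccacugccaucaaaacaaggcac
Mir34c: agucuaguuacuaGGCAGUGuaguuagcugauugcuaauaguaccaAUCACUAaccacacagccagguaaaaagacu

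The assay names mmu-miR-34a, mmu-miR-34c and mmu-miR-449a carry no arm, and the files do not give the arm that each assay reads. In the naming of that time such a name meant the more abundant arm, which for these microRNAs is the 5′ arm. Read in that way, mmu-miR-34c belongs with the seed GGCAGUG seen in the 5′ arm of its hairpin, and not with mmu-miR-34c-3p. The third member, mmu-miR-34b-3p, names the 3′ arm, so it has a different seed and would pair with different target sites.

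Wild-type replicate 1 had 290 microRNAs at a Ct of 35 or lower and the other samples 254 to 260, and 229 were detected in all 4. Wild-type replicate 1 stood apart. Its Pearson correlations with the other samples over these 229 assays were 0.939 to 0.954, against 0.978 to 0.989 among the other 3, and its median Ct was 29.2 against 27.4 to 28.2. All 380 of its wells other than U6 shared a constant of 0.273, and with that taken off 90.0% of those that amplified were no more than 0.1 cycle from a whole number, against 21.0% to 26.5% in the other samples. The 3 miR-34 wells of that sample lay 0.013 to 0.024 cycles from a whole cycle, so they carry little more than whole-cycle resolution. Every microRNA was read in 1 well per sample. The 4 wells of the U6 control had SDs of 0.06 to 0.18 cycles in 3 samples and 0.52 in wild-type replicate 1. The earliest assay of each of 5 tissue lists was mmu-miR-133a of striated muscle at a mean Ct of 20.4, mmu-miR-126-3p of endothelium at 20.4, mmu-miR-203 of epithelium at 22.2, mmu-miR-223 of blood at 23.6 and mmu-miR-9 of brain at 23.9. Other assays of these lists were later, such as mmu-miR-142-5p of blood at 33.6 and mmu-miR-124 of neurons at 29.2, and mmu-miR-219 of the neural list had no reading in 2 samples.

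In ER-alpha KO embryos mmu-miR-34c, a product of the Mir34b and Mir34c locus, read later than in wild-type embryos, while mmu-miR-34a and mmu-miR-34b-3p had overlapping values. Set against the sample median, mmu-miR-34c stood at 0.33-fold of wild-type, mmu-miR-34a at 0.86-fold and mmu-miR-34b-3p at 1.38-fold. The standard error was 0.64 log2 units for each (n = 2 against 2). The same limma fit over all 229 microRNAs called 0 of them (0%) at an adjusted p of 0.05, and 10 (4.37%) had an unadjusted p under 0.05. In whole embryos, fewer cells of a type and less RNA per cell cannot be told apart.

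The Ct of mmu-miR-34c was 34.2 and 33.8 in ER-alpha KO replicates 1 and 2, against 33.3 and 32.1 in wild-type replicates 1 and 2. Both knockout samples were thus later than both wild-type samples before any scaling, but the latest reading was only 0.78 cycles short of the detection limit. Relative to the sample median, its level was -6.02 and -5.93 log2 units in knockout samples, against -4.05 and -4.72 in wild-type samples. On this scale the 2 knockout samples lay close together and below both wild-type samples. On the raw Ct scale the wild-type samples were 1.20 cycles apart, more than the 0.47 cycles between the nearest samples of the 2 groups. Group means were -5.98 ± 0.07 in ER-alpha KO and -4.39 ± 0.47 in wild-type embryos (SD, n = 2 each), a log2 fold change of -1.59. Lower, non-overlapping knockout values were seen for 1 of the 3 members, and for 14 of the 229 microRNAs (6.11%). Higher, non-overlapping knockout values were seen for 76 of the 229 (33.2%). Among the 28 assays with a mean Ct over 32, mmu-miR-34c with them, 6 were lower and 4 higher without overlap.

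**Figure D1:**
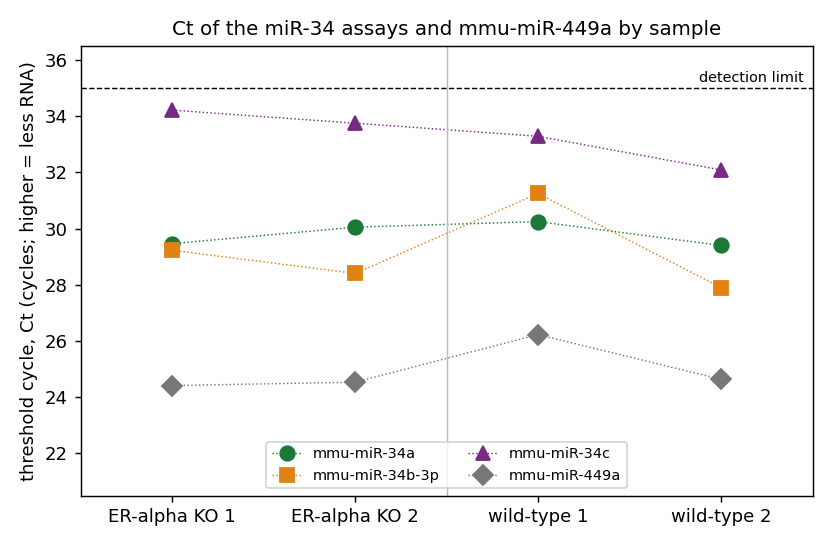
Threshold cycle (vertical axis, cycles, later means less RNA) of the 3 miR-34 assays and mmu-miR-449a in each sample, with ER-alpha KO left of the grey line and wild-type right of it. The 2 knockout readings of mmu-miR-34c, at 34.2 and 33.8, lie above both wild-type readings, and mmu-miR-34b-3p in wild-type replicate 1, at 31.3, lies apart from its other 3 readings.

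For mmu-miR-34a the Ct was 29.5 and 30.1 in ER-alpha KO replicates 1 and 2, against 30.2 and 29.4 in wild-type replicates 1 and 2. The 4 readings spanned 0.85 cycles in all, the narrowest span of the 3 members, and the groups overlapped. Its level relative to the sample median was -1.27 and -2.23 log2 units in knockout samples, against -1.02 and -2.04 in wild-type samples. On this scale replicate 1 was higher than replicate 2 in both genotypes. The means were -1.75 ± 0.67 in ER-alpha KO and -1.53 ± 0.72 in wild-type embryos (SD, n = 2 each). The log2 fold change was -0.22 with this centring, 0.05 when scaled to the 5 small-RNA controls and 0.07 without normalization. These scalings move all assays alike, and mmu-miR-34a stood at -0.49 log2 units from the median of all assays under each. Without wild-type replicate 1 it was -0.04 when centred again on the 241 assays then detected, and 0.29 with the centring kept on the 229.

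For mmu-miR-34b-3p the Ct was 29.2 and 28.4 in ER-alpha KO replicates 1 and 2, against 31.3 and 27.9 in wild-type replicates 1 and 2. The wild-type samples were 3.35 cycles apart and enclosed both knockout samples. Relative to the sample median, the level was -1.04 and -0.58 log2 units in knockout samples, against -2.02 and -0.54 in wild-type samples. Wild-type replicate 1 was the low value, and the remaining 3 samples lay within 0.50 log2 units. The means were -0.81 ± 0.32 in ER-alpha KO and -1.28 ± 1.05 in wild-type embryos (SD, n = 2 each), a log2 fold change of 0.47. Without wild-type replicate 1 it was -0.60 when centred again and -0.27 with the centring kept, and without wild-type replicate 2 it was 1.32. The direction thus rested on wild-type replicate 1.

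**Figure D2:**
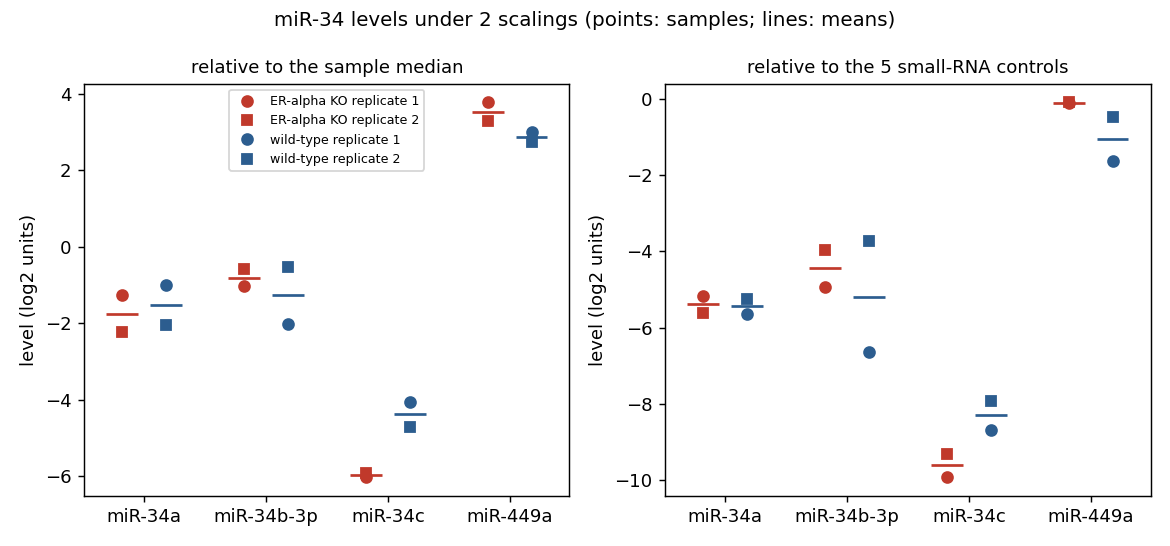
Level of each assay in log2 units (vertical axis) relative to the sample median (left) and to the mean of the 5 small-RNA controls (right), as points for samples and lines for group means, with ER-alpha KO left of wild-type. For mmu-miR-34c the knockout means are -5.98 and -9.61 and the wild-type means -4.39 and -8.30, and the groups do not overlap in either panel.

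The lower reading of mmu-miR-34c was also set against each small-RNA control in turn, since a gap between 2 wells of a sample needs no scaling between samples. All these gaps use the same mmu-miR-34c wells, so they are not separate support for its lower reading. In wild-type replicate 1 the constant of 0.273 was shared by the wells other than U6, so the gap to U6 there includes it. The gap of mmu-miR-34c to U6 was 18.4 and 18.1 cycles in ER-alpha KO samples, against 17.3 and 16.2 in wild-type samples. To snoRNA135 it was 8.85 and 8.46 in knockout samples, against 7.02 and 7.14 in wild-type samples. To snoRNA202 it was 9.86 and 10.0 in knockout samples, against 8.05 and 8.67 in wild-type samples. In these 3 the gap was wider in both knockout samples, by 1.53, 1.57 and 1.57 cycles in the mean. The gap to Y1 was 4.34 and 4.43 in knockout samples, against 4.06 and 3.28 in wild-type samples, a difference of 0.71. Y1 itself came later in both knockout samples, at a Ct of 29.9 and 29.3, against 29.2 and 28.8 in wild-type samples. Only the gap to U87 overlapped between the groups, at 8.14 and 5.49 in knockout samples against 7.02 and 4.28 in wild-type samples. The U87 control read 26.1 and 28.3 in ER-alpha KO replicates 1 and 2, against 26.3 and 27.8 in wild-type replicates 1 and 2, so it differed more between replicate numbers than between genotypes.

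Late assays tended to have lower fold changes in this panel, and mmu-miR-34c was among the latest. Its mean Ct over all samples was 33.3, rank 224 of 229 with the earliest first. Its neighbours in that order were mmu-miR-7b (33.2) and mmu-miR-181c (33.3) before it, and mmu-miR-142-5p (33.6) and mmu-miR-496 (33.7) after it. The 28 assays with a mean Ct over 32 had a median log2 fold change of -0.36, and 20 of them were below 0. The 62 assays with a mean Ct up to 26 had a median of 0.51, and 6 of them were below 0. Against this background mmu-miR-34c was 1 of 4 late assays at or below -1.59, and its fold change had rank 5 of 229 from the lowest. Without wild-type replicate 1, centred again on 241 assays, the early class had a median of 0.11 with 20 of 62 below 0. The late assays then had a median of -0.51, and mmu-miR-34c, at -1.58, had rank 2 of 241. The new centring lowers all fold changes of this fit alike. The median of all assays was -0.03 in it, against 0.26 with all 4 samples. With the centring kept on the 229 assays, leaving out that sample gave -1.25 for mmu-miR-34c. These Ct classes were chosen after the values were seen, and the part that late amplification plays in the value of mmu-miR-34c was not tested.

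**Figure D3:**
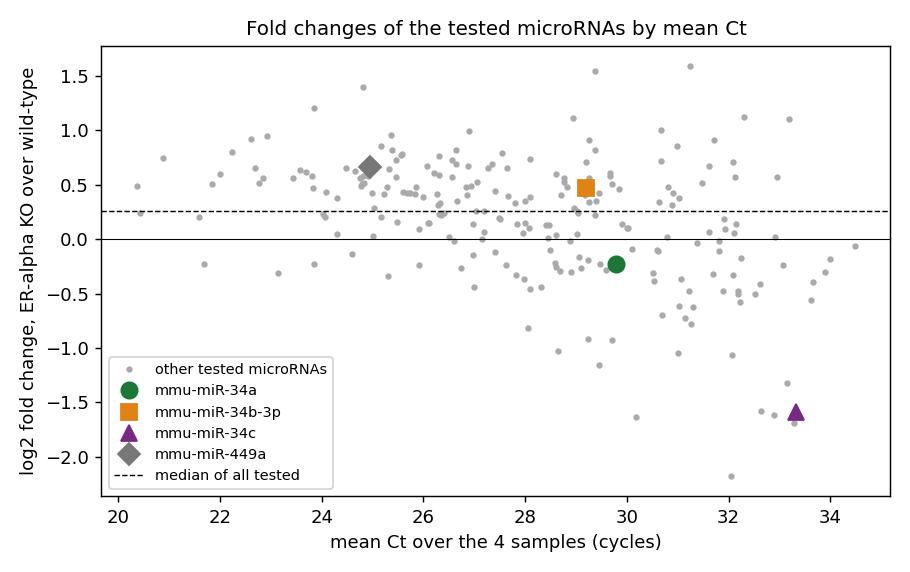
Log2 fold change of ER-alpha KO over wild-type (vertical axis) against mean Ct over the 4 samples (horizontal axis, cycles) for the 229 tested microRNAs, with the miR-34 assays and mmu-miR-449a marked and the median of 0.26 as a dashed line. The cloud slopes down to the right, and mmu-miR-34c, at 33.3 and -1.59, lies at its lower right end, while mmu-miR-34a, at 29.8 and -0.22, and mmu-miR-34b-3p, at 29.2 and 0.47, lie within it.

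Within the family, mmu-miR-34c was late against both other members in knockout embryos. The gap of mmu-miR-34c minus mmu-miR-34a was 4.75 and 3.70 cycles in ER-alpha KO samples, against 3.04 and 2.68 in wild-type samples. The groups did not overlap, and the gap was wider in knockout samples by 1.36 cycles. In wild-type replicate 1 the gap of 3.04 is taken between 2 wells with little more than whole-cycle resolution. The lack of overlap with the knockout gap of 3.70 is therefore uncertain. The share of other assay pairs without overlap was not computed. The gap of mmu-miR-34c minus mmu-miR-34b-3p was 4.99 and 5.34 cycles in knockout samples, against 2.04 and 4.18 in wild-type samples. It was wider in knockout samples by 2.06 cycles, and by 0.98 without wild-type replicate 1. That pair comes from neighbouring hairpins, and its wild-type samples differed by 2.15 cycles, more than the group means. The gap of mmu-miR-34b-3p minus mmu-miR-34a was -0.24 and -1.65 cycles in knockout samples, against 1.00 and -1.50 in wild-type samples. Here the groups overlapped, and the difference of -0.69 cycles turned to 0.56 without wild-type replicate 1.

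**Figure D4:**
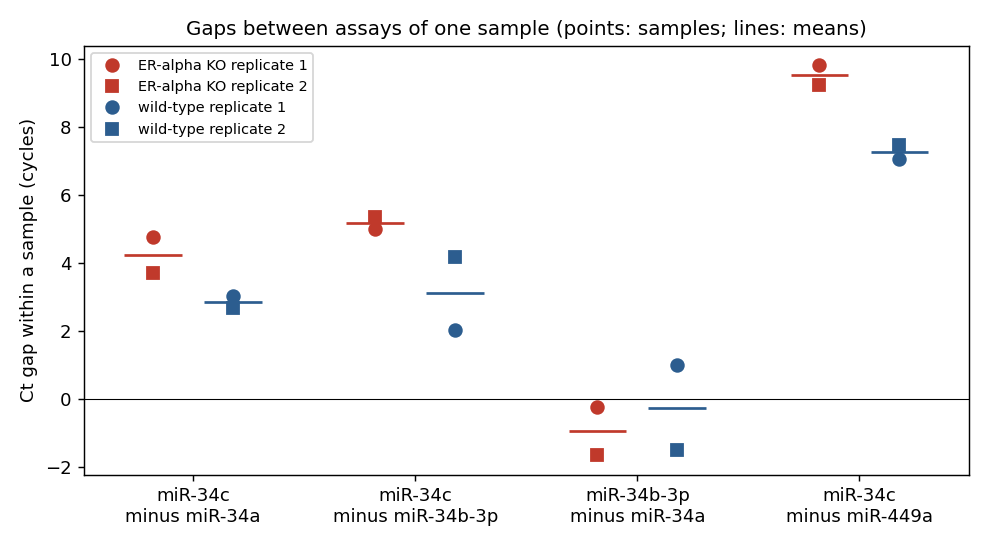
Gap in Ct between 2 assays of the same sample (vertical axis, cycles) as points for samples and lines for group means, with ER-alpha KO left of wild-type. The gaps of mmu-miR-34c to mmu-miR-34a, mmu-miR-34b-3p and mmu-miR-449a are wider in both knockout samples, and that of mmu-miR-34b-3p to mmu-miR-34a overlaps between the groups.

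The seed relative mmu-miR-449a was much the earliest of these assays and ran the other way from mmu-miR-34c. Its Ct was 24.4 and 24.5 in ER-alpha KO samples, against 26.2 and 24.6 in wild-type replicates 1 and 2. Relative to the sample median it stood at 3.77 and 3.29 log2 units in knockout samples, against 3.0 and 2.73 in wild-type samples. The groups did not overlap, as for 39.3% of all tested microRNAs in either direction. Among the 62 assays with a mean Ct up to 26, mmu-miR-449a with them, 38 were higher in knockout without overlap. The median log2 fold change of these 62 was 0.51, against -0.36 for the 28 assays over 32, mmu-miR-34c with them. The log2 fold change of mmu-miR-449a was 0.67. It was 0.06 with quantile normalization. The gap of mmu-miR-34c minus mmu-miR-449a was 9.80 and 9.21 cycles in knockout samples, against 7.06 and 7.45 in wild-type samples, wider in knockout samples by 2.25 cycles and by 1.96 to 2.55 when any 1 sample was left out. The gap of mmu-miR-34a minus mmu-miR-449a was 5.05 and 5.52 in knockout samples, against 4.02 and 4.76 in wild-type samples, and that of mmu-miR-34b-3p overlapped. The assay of mmu-miR-449b, another member of that cluster, gave 1 late reading, 36.2 cycles in wild-type replicate 1, and none in the other 3 samples. Assays of different efficiency do not give relative amounts, so the Ct order of mmu-miR-449a, mmu-miR-34b-3p, mmu-miR-34a and mmu-miR-34c is an order of readings. Within the family, mmu-miR-34b-3p (mean Ct 29.2) read earlier than mmu-miR-34a (29.8) in every sample but wild-type replicate 1.

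The members were not among each other's nearest assays in profile over the 4 samples. Likeness was measured as the root mean square difference of levels after each assay's own mean was taken off, over 4 samples. For mmu-miR-34a the nearest of 228 assays were mmu-miR-15a (0.12 log2 units), mmu-miR-467c (0.12) and mmu-miR-21 (0.15), against a median of 0.58. For mmu-miR-34b-3p they were mmu-miR-125a-5p (0.11), mmu-miR-204 (0.14) and mmu-miR-486 (0.14), with a median of 0.67, and all 3 were lowest in wild-type replicate 1. For mmu-miR-34c they were mmu-miR-339-5p (0.32), mmu-miR-181a (0.33) and mmu-miR-344 (0.39), with a median of 1.01. Its locus partner mmu-miR-34b-3p came at 1.28, rank 198 of 228 from mmu-miR-34c, and mmu-miR-34a at 0.79, rank 49 and nearer than the median. From mmu-miR-34a, mmu-miR-34b-3p came at 1.07, rank 214 of 228.

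Other microRNAs reported as p53 targets or as processed with p53's help had 16 assays on the panel, of which 15 were detected in all samples. Of these, 0 passed the limma threshold in either direction. The fit called 0 of all 229 microRNAs, so this count says nothing particular to the list. Their median log2 fold change was 0.26, the same as the 0.26 over all 229 microRNAs, and 7 lay above and 7 below it. The largest values were mmu-miR-16 (0.74), which restrains the cell cycle, mmu-miR-29c (0.51), which targets matrix genes, and mmu-miR-192 (0.51), of liver and gut. Knockout and wild-type samples did not overlap for 5 of the 15, with 5 higher and 0 lower in knockout, against 33.2% higher and 6.11% lower over all 229. Without wild-type replicate 1 the median of the list was 0.07 and that of all microRNAs -0.03, with mmu-miR-16 at 0.52, mmu-miR-29c at -0.05 and mmu-miR-192 at 0.07. The lowest of the list was mmu-miR-107, named after its values were seen, at -0.50 and, without wild-type replicate 1, at -1.04.

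The log2 fold change of mmu-miR-34c was below 0 in all 11 alternatives that gave a value, at -1.90 to -1.14. It was also below those of mmu-miR-34a and mmu-miR-34b-3p in each, but the order within the family could change only with quantile normalization or a left-out sample, since the other settings move all members alike. That of mmu-miR-34a was below 0 in 9 of 12 and that of mmu-miR-34b-3p above 0 in 11 of 12. The replicate block and the fit without a filter could not change a member's value, so they add nothing to these counts. With a detection limit at a Ct of 32 mmu-miR-34c drops out of the comparison. These settings share the same 4 samples, so they do not add replication.

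**Figure D5:**
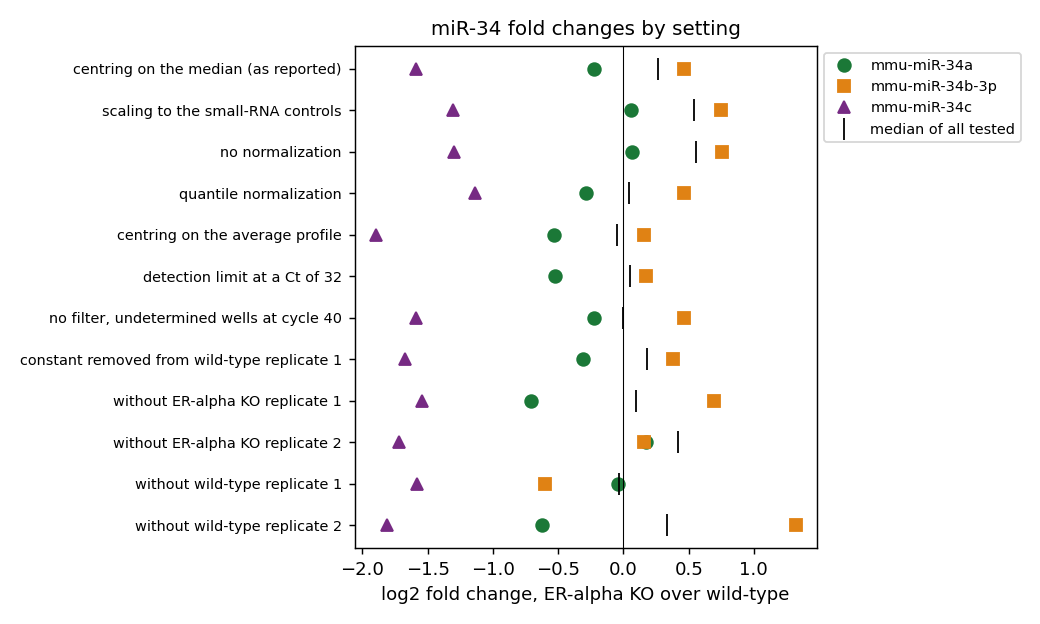
Log2 fold change of ER-alpha KO over wild-type (horizontal axis) for each member under each scaling, filter and left-out sample (rows), with the median of all tested microRNAs as a tick. The values of mmu-miR-34c lie between -1.90 and -1.14, those of mmu-miR-34a between -0.71 and 0.17 and those of mmu-miR-34b-3p between -0.60 and 1.32.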

How the data were processed

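TRIzol total RNA was assayed by TaqMan PCR (Applied Biosystems 7900HT, 40 cycles), per the labels' protocols. Each deposited value is a threshold cycle, a score per well, per the file headers. Threshold, baseline and any normalization are not given in the sources used here. Wells without amplification are undetermined in 3 files. In the fourth, wild-type replicate 1, 39 wells stand at cycle 40 plus the shared constant and were treated as not amplified. The 4 U6 wells were averaged, and 1141 lines of ER-alpha KO replicate 2 that hold no assay were left out. PCR gives no read depth, and 2 samples per group limit the precision.

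Levels are minus Ct centred on each sample's median over the 229 microRNAs at a Ct of 35 or lower in all samples. They were fitted with limma 3.58.1 in R 4.3.3 (lmFit, eBayes, two-sided, group only, Benjamini-Hochberg over the 229). With infinite prior degrees of freedom, 1 standard error serves every assay. That of mmu-miR-34c was 0.90 log2 units with trend and robust settings of eBayes, and 0.34 with ordinary variances. An exact permutation test of 2 against 2 samples cannot go below 0.333, and none was made. The fit was tested on simulated data with the same noise for every assay and changes of 3 log2 units. That is larger than the change of mmu-miR-34c, so the test does not show whether changes of that size would be called. Members, lists and tests were chosen with earlier results of these data known. Named microRNAs are the members, those with a shared seed, the largest of the p53-linked list, the nearest 3 in profile, the neighbours of mmu-miR-34c in Ct and the controls. Alternatives were other scalings and filters, each sample left out, the replicate block and other variance settings. Other steps used Python 3.11.15, pandas 2.3.3 and matplotlib 3.10.9.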

Additional observations from a re-analysis of the deposited data

How the results depend on the processing

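The number of microRNAs called was 0 under every alternative but the replicate number as a replicate block, which called 1, mmu-miR-324-3p and no miR-34 assay. Deviations from the group means correlated between same-numbered samples (r = 0.37 across 229 assays). The labels give the numbers no meaning and there are only 2, so the samples were not paired. The block left the members' fold changes as they were. Quantile normalization moved mmu-miR-34c to -1.14 by more than its replicate SD; the cause was not tested. With each sample left out in turn and the rest centred again, the log2 fold change of mmu-miR-34c ranged from -1.81 to -1.54. It ranged from -0.71 to 0.17 for mmu-miR-34a and from -0.60 to 1.32 for mmu-miR-34b-3p. With the centring kept, mmu-miR-34c stood at -1.25 without wild-type replicate 1 and at -1.92 without wild-type replicate 2. On that scale mmu-miR-34a stood at 0.29 and -0.74, and mmu-miR-34b-3p at -0.27 and 1.21. A lone sample was then assumed to vary like the other group. The difference in gap ranged from 0.84 to 1.89 cycles for mmu-miR-34c minus mmu-miR-34a, from 0.98 to 3.13 for mmu-miR-34c minus mmu-miR-34b-3p and from -1.94 to 0.56 for mmu-miR-34b-3p minus mmu-miR-34a. The replicate block for these gaps was added after seeing the data and changes no mean. Readings of mmu-miR-34c within 0.78 cycles of the detection limit, in single wells, limit the precision of its level.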
